A study of Arabidopsis thaliana with 12 samples.

Results

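The small RNAs of leaves and of floral buds were compared within wild-type Arabidopsis thaliana of the Col-0 accession. The comparison took in 4 of the 12 libraries of the series, 2 sRNA-Seq libraries from rosette and cauline leaves and 2 from unopened floral buds, chosen by their labels alone. Both organs came from the same plants, which were 4 to 6 weeks old and kept in 16 h of light and 8 h of dark. A replicate is a pool of several plants, and the 2 pools of an organ did not share plants. A further 2 sRNA-Seq libraries came from floral buds of the dcl234 triple mutant, which lacks the nucleases DICER-LIKE 2, 3 and 4. These mutant libraries helped to estimate the spread between replicates and are otherwise described only where said. The other 6 libraries of the series are mRNA-Seq of the same RNA samples, read here only to check the organs and the tasiRNA precursors. All sRNA values are RPM (reads divided by the genome-matching total and multiplied by 1000000), so a family can be higher in an organ because others are lower, and amounts per µg of RNA were not analysed here. In whole organs, fewer cells of a type and less small RNA per cell cannot be told apart.

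Plant microRNAs (miRNAs) are cut from hairpin transcripts by DICER-LIKE 1 and guide ARGONAUTE proteins to messenger RNAs that they match over most of their length. Some miRNAs cut non-coding TAS transcripts, which are then made double-stranded and diced at a fixed spacing into trans-acting siRNAs (tasiRNAs) that silence further genes. A different branch makes small interfering RNAs (siRNAs) from transposons, which keep these elements silent, and much of it works through DNA methylation. In leaves and flowers the conserved miRNAs are best known as regulators of organ growth, of the change from juvenile to adult leaves, and of floral organ identity.

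The miRNAs on which the comparison turned are printed first, because families that differ sharply between leaves and buds can resemble each other closely. Sequences and positions are those of RefSeq for the TAIR10.1 build, written 5′ to 3′ with T for U. Capitals mark the seed, bases 2 to 8. The first set holds the most abundant families of both organs and 1 partner strand.
miR159a (chr1:27713234-27713254, minus strand): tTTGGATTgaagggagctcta
miR319a (chr4:12353109-12353129, plus strand): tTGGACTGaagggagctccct
miR396a-5p (chr2:4142443-4142463, minus strand): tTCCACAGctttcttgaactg
miR396a-3p (chr2:4142331-4142351, minus strand): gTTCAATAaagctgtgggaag
miR158a-3p (chr3:3366349-3366368, minus strand): tCCCAAATgtagacaaagca
miR161.1 (chr1:17825731-17825751, plus strand): tGAAAGTGactacatcggggt
miR162a-3p (chr5:2634936-2634956, minus strand): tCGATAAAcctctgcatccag
miR165a-3p (chr1:78932-78952, minus strand): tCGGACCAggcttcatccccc
The second set holds families that were higher in leaves, with both strands of the miR398b hairpin.
miR398b-3p (chr5:4691107-4691127, plus strand): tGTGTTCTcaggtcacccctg
miR398b-5p (chr5:4691033-4691053, plus strand): aGGGTTGAtatgagaacacac
miR398c-5p (chr5:4694705-4694725, plus strand): aGGGTTGAtatgagaacacac
miR5026 (chr4:7844612-7844632, plus strand): aCTCATAAgatcgtgacacgt
miR863-3p (chr4:7846835-7846855, plus strand): tTGAGAGCaacaagacataat
miR841a-5p (chr4:7885393-7885413, minus strand): tACGAGCCacttgaaactgaa
miR3932b-5p (chr4:7890695-7890715, minus strand): tTTGACGTgctcgatctgctc
The last set holds families that were higher in floral buds.
miR780.1 (chr4:8504166-8504186, minus strand): tCTAGCAGctgttgagcaggt
miR780.2 (chr4:8504145-8504165, minus strand): tTCTTCGTgaatatctggcat
miR845a (chr4:12217457-12217477, minus strand): cGGCTCTGataccaattgatg
miR845b (chr4:12214086-12214107, minus strand): tCGCTCTGataccaaattgatg
miR778 (chr2:17349548-17349568, minus strand): tGGCTTGGtttatgtacaccg
miR851-3p (chr3:19659577-19659597, minus strand): tGGGTGGCaaacaaagacgac
miR831-3p (chr2:10247390-10247411, plus strand): tGATCTCTtcgtactcttcttg
miR159a and miR319a share most of their length yet not their seed, TTGGATT against TGGACTG. The mature sequences of miR398b-5p and miR398c-5p are identical, so their reads cannot be told apart and the files list the same value for both. The miR780.1 and miR780.2 sequences lie end to end on the minus strand of 1 hairpin.

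The values rest on about 8786000 and 4062000 genome-matching reads in the leaf libraries and on 13243000 and 13755000 in the bud libraries, depths that follow from the step of 1 read (0.114, 0.246, 0.0755 and 0.0727 RPM). The labelled organs matched their markers in the mRNA of the same RNA samples. RBCS1A, a subunit of the carbon-fixing enzyme Rubisco, stood at 14838 and 12324 TPM (transcripts scaled to a sum of 1000000) in leaves and at 5511 and 6053 TPM in buds. The floral regulators AP1, AP3, PI, AG and SEP3 were at 0 to 3.31 TPM in leaves and at 17.0 to 144 TPM in buds. MS2, an anther gene, was listed at 0 in both leaf libraries and at 5.38 and 7.88 TPM in buds.

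The classes of small RNA took different shares of the 2 organs. The miRNA families summed to 78955 and 74544 RPM in leaves and to 46689 and 48918 RPM in buds, 1.61-fold higher in leaves. The tasiRNAs summed to 21130.5 and 11439 RPM in leaves and to 8195 and 10346 RPM in buds, and their 1.76-fold leaf excess moved between 1.23 and 2.28 when single libraries were left out, lowest without leaf replicate 1. Transposon siRNAs went the other way. The table named siR_21 summed to 447342 and 409837 RPM in leaves and to 904450.0 and 1016060.0 RPM in buds, 2.24-fold higher in buds. The table named siR_24 summed to 98988 and 106309 RPM in leaves and to 253574 and 282056 RPM in buds, 2.61-fold higher in buds. In all 4 classes the leaf libraries lay entirely to 1 side of the bud libraries, and with 2 libraries against 2 the exact two-sided permutation test gave p = 0.333, the smallest it can give. A read was counted at each transposon it overlapped, so these totals are sums over transposons and not shares of a library. In dcl234 buds the siR_21 total was 81864 and 80126 RPM while siR_24 was 220073 and 197695 RPM. DICER-LIKE 3 makes the siRNAs of 24 nt, and in the mutant the table named siR_21 was the one far below the Col-0 buds. Which size class each table holds could not be settled, and each table is called by its name.

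The ranking of miRNA families was steep in both organs, and most of the leading families were shared. The highest family held 35.9% ± 2.64 of the miRNA total in leaves and 30.8% ± 4.16 in buds (SD, n = 2). The 5 highest held 74.3% ± 2.70 and 73.7% ± 1.40, and the 10 highest held 87.9% ± 0.301 and 88.8% ± 0.672. The top-5 shares overlapped between the organs, while the top-10 shares did not (exact two-sided permutation p = 0.333). Of the 10 highest families 7 were the same in leaves and buds, against 8 between the leaf replicates and 10 between the bud replicates. Below this level lay a long tail. In leaves 196.5 families on average were above 0 and 62.5 of them under 1 RPM, and in buds 228 were above 0 and 92.5 under 1 RPM.

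**Figure D1:**
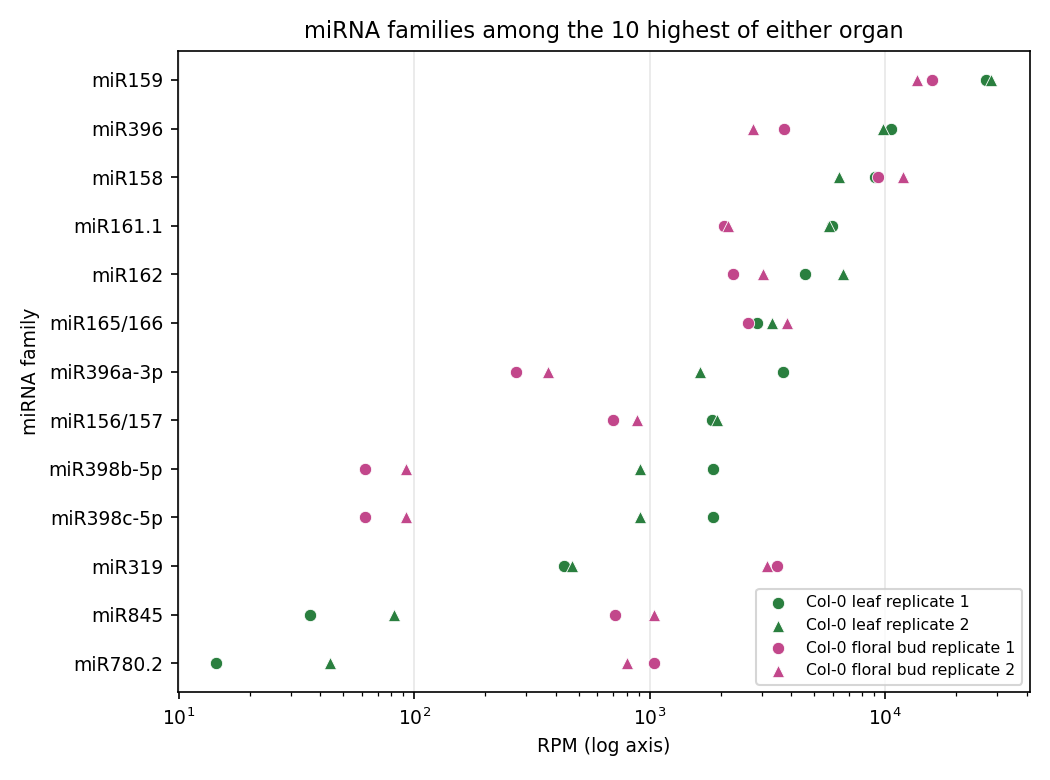
Level (RPM, log axis) of the miRNA families among the 10 highest of leaves or floral buds, with 1 point per library and families in order of their leaf level. miR159 leads in both organs, while miR319, miR845 and miR780.2 sit far higher in the bud libraries and miR398b-5p and miR398c-5p, which share 1 sequence, far higher in the leaf libraries.

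miR159, which represses GAMYB-like MYB transcription factors, ranked first in every library. It stood at 26895 and 28172 RPM in leaves and at 15751 and 13628 RPM in buds. The leaf values were higher without overlap, and the difference, 0.91 ± 0.27 (SE) on the log2(RPM + 1) scale, did not reach 2-fold (adjusted p = 0.013, limma with Benjamini-Hochberg adjustment over the 147 families tested). A family was called where this adjusted p was under 0.05 and the difference was at least 2-fold. By these criteria 56 of the 147 tested families (38.1%) were higher in leaves and 31 (21.1%) were lower, 59.2% in all. In 81% of tested families the replicates of the organs did not overlap. The median family was 0.41 higher in leaves on the log2 scale. With each library scaled to its own miRNA total the median was -0.13, and 39 families were called higher and 48 lower, so it is said below which calls held under this scaling.

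Second place was taken by different families. In leaves it went to miR396, a regulator of GROWTH-REGULATING FACTOR genes, at 10628 and 9844 RPM against 3727 and 2753 RPM in buds. miR396 was called higher in leaves (1.67 ± 0.28, adjusted p = 0.00044) but not when scaled to the miRNA total (0.99). Its partner strand miR396a-3p ranked seventh in leaves at 3681 and 1638 RPM and fourteenth in buds at 269.9 and 370.2 RPM, and was called higher in leaves under both scalings (2.95 ± 0.39, adjusted p = 0.0001). In buds second place went to miR158, a family known from Arabidopsis and its relatives. miR158 stood at 9311 and 11959 RPM in buds and at 9064 and 6344 RPM in leaves, and the difference was not called in RPM (-0.48 ± 0.30, adjusted p = 0.18). As a share of all miRNAs it was 11.5% and 8.51% in leaves and 19.9% and 24.4% in buds, and it was called higher in buds once libraries were scaled to the miRNA total (-1.16, adjusted p = 0.006).

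miR319 was the conserved family that entered the 3 highest in buds from well below the 10 highest in leaves. This family represses the TCP transcription factors that limit leaf growth. It stood at 434 and 469 RPM in leaves, rank 17, and at 3478 and 3145 RPM in buds, rank 3. It was called lower in leaves (-2.87 ± 0.27, adjusted p = 1e-05) under either scaling, and its share of the miRNA total was 0.589% ± 0.0559 in leaves and 6.94% ± 0.721 in buds (SD, n = 2). miR159 and miR319, whose sequences overlap so widely, thus took places 1 and 17 in leaves and places 1 and 3 in buds.

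Other leading families kept closer places. miR161.1, which targets pentatricopeptide repeat genes, was at 5973 and 5795 RPM in leaves and 2077 and 2143 RPM in buds (1.48, adjusted p = 0.00065). miR162, which targets DCL1 itself, was at 4573 and 6626 RPM in leaves and 2264 and 3033 RPM in buds (1.07 ± 0.31, adjusted p = 0.011). The miR162 call was lost without leaf replicate 2 (0.80) and without bud replicate 1 (0.86), and neither family kept its call when scaled to the miRNA total. miR165/166, regulators of the HD-ZIP III genes that set the upper side of leaves, was at 2871 and 3317 RPM in leaves and at 2627 and 3826 RPM in buds, overlapping ranges with a difference of -0.04 (adjusted p = 0.92).

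Development was the largest of the role lists. The lists were chosen with earlier results of these data known, so their counts are descriptions. Of its 42 listed families and strands 41 passed the filter of a mean of at least 1 RPM, 19 were called higher in leaves and 7 lower, against 38.1% and 21.1% of all tested families, with a median log2 difference of 0.41, the same as over all tested families. Scaled to the miRNA total, 10 were called higher and 12 lower, against 39 and 48 of the 147 tested families. miR164, which restrains NAC genes at organ boundaries, was higher in leaves at 220.5 and 256 RPM against 63.8 and 65.2 RPM in buds (1.87 ± 0.27, adjusted p = 0.00017) under both scalings. miR167, a regulator of ARF6 and ARF8, was called higher at 705 and 715 RPM against 215 and 252 RPM (1.60), though not when scaled (0.92). miR172, which represses APETALA2-like genes, was lower in leaves at 18.0 and 14.4 RPM against 37.7 and 40.1 RPM (-1.22 ± 0.27, adjusted p = 0.0025), also when scaled.

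The strands of miR156 and miR157, which target SPL genes and hold plants in the juvenile phase, did not move as 1 group. The mature family miR156/157 was called higher in leaves at 1846 and 1938 RPM against 697 and 881 RPM in buds (1.27 ± 0.27, adjusted p = 0.002), though not when scaled (0.59). The partner strand miR157a-3p was at 40.3 and 37.9 RPM in leaves and 3.47 and 3.13 RPM in buds (3.22). By contrast miR156a-3p was at 1.82 and 4.43 RPM in leaves and 22.4 and 23.0 RPM in buds (-2.60). Both partner strands kept their calls under either scaling, in opposite directions. The partner strands of miR393, a regulator of auxin receptors, were listed under 1 name. miR393-3p stood at 408 and 423 RPM in leaves and 25.8 and 27.0 RPM in buds (3.93 ± 0.27, adjusted p = 2.9e-06), called under both scalings. The guide strand miR393-5p was far scarcer, at 1.59 and 1.23 RPM in leaves and 0.604 and 1.12 RPM in buds, and was not called (0.38, adjusted p = 0.27).

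The abundant families known mainly from Brassicaceae, miR158, miR161 and miR163, had 5 listed entries. Of these 2 were called higher in leaves in RPM, a share close to the 38.1% of all tested families. Once scaled 1, miR158, was called lower, against 48 of the 147 tested families. miR163, which targets methyltransferase genes, was at 979 and 1029 RPM in leaves and 375 and 365 RPM in buds (1.44 ± 0.27, adjusted p = 0.0008), though not called when scaled (0.76). Its annotated mature form is 24 nt long and only reads of 20 to 22 nt were counted, so its level is that of shorter reads.

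The phosphate and sulfate list gave no call in RPM. Of its 6 entries 3 passed the filter, and limma called 0 in either direction in RPM, while 1 was higher in leaves at an unadjusted p under 0.05. Of all tested families 38.1% were called higher and 21.1% lower, and 3 entries are too few to set against these shares. miR399, which targets the PHO2 gene of phosphate transport, was at 16.5 and 25.8 RPM in leaves and 14.0 and 28.5 RPM in buds (0.04). miR395, a regulator of sulfate assimilation, was at 8.65 and 8.86 RPM against 10.1 and 25.2 RPM, and was called lower in leaves only when scaled (-1.45). The entry with the low p was miR827, which targets the NLA gene of phosphate transport, at 1.76 and 1.72 RPM against 0.831 and 0.0364 RPM (0.99, adjusted p = 0.02).

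The copper list held the largest leaf excess of the role lists. miR398, which targets copper/zinc superoxide dismutases and their chaperone, stood at 1455 and 435 RPM in leaves and at 56.2 and 76.3 RPM in buds (3.58 ± 0.49, adjusted p = 0.00012). The other strand of the hairpin was even more abundant. miR398b-5p, with the same sequence as miR398c-5p, stood at 1866 and 912 RPM in leaves and at 61.8 and 92.1 RPM in buds (4.09 ± 0.42, adjusted p = 2e-05). miR398a-5p was at 9.90 and 7.63 RPM against 0.0755 and 0.654 RPM (2.86). These 4 entries were called under both scalings, and the leaf replicates differed from each other more than 2-fold for miR398 and miR398b-5p, with replicate 1 the higher.

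The other members of the copper list did not all follow. miR408-3p, which targets the copper protein plantacyanin and laccases, was at 131 and 139 RPM in leaves and 36.0 and 79.7 RPM in buds (1.31, adjusted p = 0.021), called in RPM only. miR408-5p was at 220.4 and 152 RPM against 222 and 459 RPM (-0.80, adjusted p = 0.099), and was called lower in leaves once scaled (-1.48). The laccase regulator miR397 was at 1.48 and 1.48 RPM in leaves and 0.982 and 2.18 RPM in buds (-0.02, adjusted p = 0.97). In all, 7 of 8 listed copper entries passed the filter, 5 were called higher in leaves, against 38.1% of all tested families, and the other 2 were not called. All of the called entries but miR408-3p are miR398 entries. Of these, miR398b-5p and miR398c-5p hold the same reads, and miR398a-5p passed the filter through its leaf values alone. The sum of the list was 5550 and 2560 RPM in leaves and 439 and 804 RPM in buds.

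The list of silencing regulators and tasiRNA triggers had about the same share of leaf-higher calls as all families. Of its 14 entries 13 passed, with 5 called higher in leaves and 1 lower, against 38.1% and 21.1% of all tested families. When scaled, 2 were called higher and 1 lower, against 39 and 48 of the 147 tested families. miR168, which targets AGO1, was at 707 and 1007 RPM in leaves and 290.2 and 294 RPM in buds (1.53, adjusted p = 0.00085). miR403, which targets AGO2, was at 642 and 777 RPM against 256 and 307 RPM (1.33, adjusted p = 0.0016). Neither was called when scaled to the miRNA total.

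The strands that trigger tasiRNAs were not called on that list. miR173-5p, the trigger of TAS1 and TAS2, was at 10.6 and 10.1 RPM in leaves and 9.59 and 16.0 RPM in buds (-0.24, adjusted p = 0.51). miR390, the trigger of TAS3, was at 27.8 and 35.7 RPM against 21.6 and 26.4 RPM (0.39, adjusted p = 0.25). The 1 lower entry was a partner strand, miR390-3p, at 9.16 and 27.9 RPM in leaves and 72.0 and 112 RPM in buds (-2.41). miR828, the trigger of TAS4, was seen in a single library, bud replicate 1, at 0.0755 RPM, the value of 1 read.

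**Figure D2:**
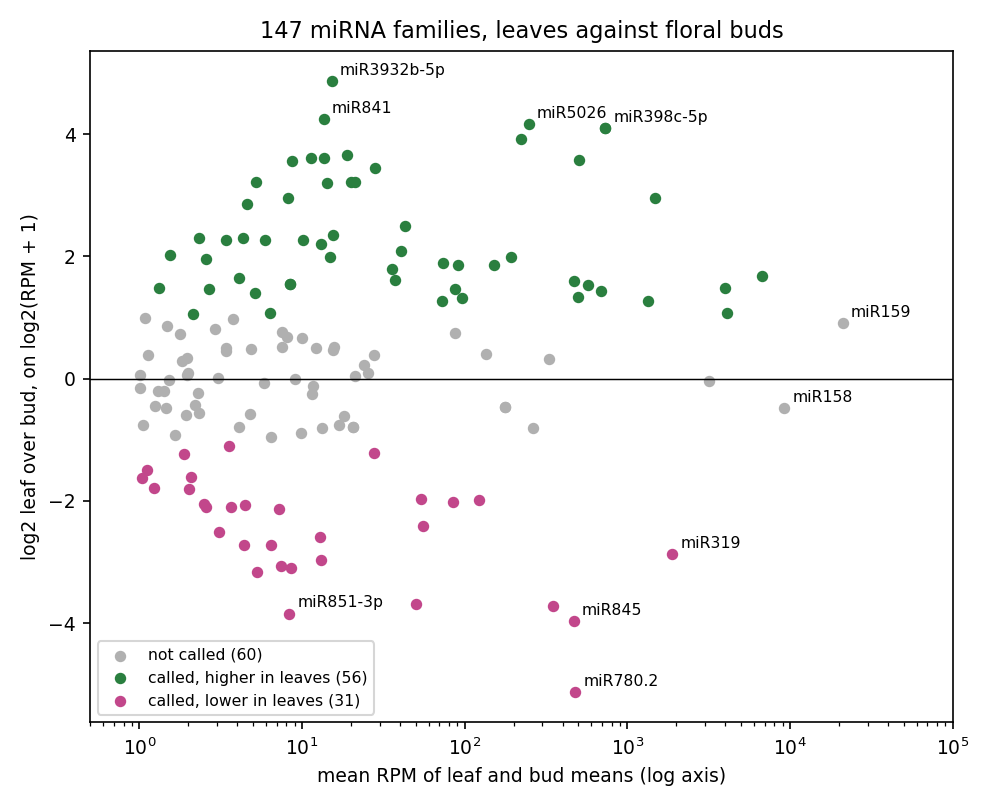
Difference between leaf and bud on the log2(RPM + 1) scale (vertical axis) against the mean RPM of both organs (log axis), with 1 point for each of the 147 tested miRNA families. Families above 0 are higher in leaves, colours mark the 56 called higher and the 31 called lower, and miR3932b-5p (4.86) and miR780.2 (-5.12) stand at the ends.

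The reproductive and chromatin list divided. All 8 listed entries passed the filter, and 4 were called lower in leaves, against 21.1% of all tested families. Of these, miR780.1 and miR780.2 come from the same hairpin, and miR778 passed the filter through its bud values alone. The other 4 were not called in RPM, and 5 of the 8 were called lower when scaled, against 48 of the 147 tested families. The sum of the list was 90.8 and 251 RPM in leaves and 2451 and 2467 RPM in buds. miR780.2 stood at 14.5 and 43.8 RPM in leaves and at 1046 and 803 RPM in buds (-5.12 ± 0.45, adjusted p = 7.9e-06), and moved from rank 46 to rank 8. miR780.1, from the same hairpin, stood at 22.4 and 99.7 RPM in leaves and at 674 and 602 RPM in buds (-3.71 ± 0.55, adjusted p = 0.00019). Its predicted target in Arabidopsis is a cation/proton exchanger gene. In both sequences the leaf replicates were far apart, with replicate 2 several times higher, yet below every bud value.

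miR845 matches the primer-binding sites of retrotransposons and is known from pollen. It stood at 36.0 and 82.0 RPM in leaves and at 712 and 1043 RPM in buds (-3.96 ± 0.40, adjusted p = 1.8e-05), rank 35 against rank 9. miR778, which targets the histone methyltransferase genes SUVH5 and SUVH6, was at 0 in both leaf libraries and at 1.96 and 2.22 RPM in buds. Of the 4 entries not called in RPM, 3 had higher values in leaves without overlap. miR823, which targets the DNA methyltransferase gene CMT3, was at 3.07 and 5.42 RPM in leaves and 2.34 and 2.87 RPM in buds (0.51, adjusted p = 0.17). miR773 was at 3.76 and 4.43 RPM against 3.02 and 2.40 RPM (0.46, adjusted p = 0.16), and the partner strand miR824-3p at 8.65 and 10.8 RPM against 5.36 and 5.23 RPM (0.76, adjusted p = 0.037, under 2-fold). The last of the 4, miR824-5p, which targets AGL16, was at 2.45 and 5.05 RPM in leaves and 5.85 and 5.78 RPM in buds, and was called lower in leaves only when scaled (-1.17).

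The other families with the greatest bud excess were young or little studied. miR851-3p was at 0.114 and 0.246 RPM in leaves, 1 read each, and at 12.3 and 20.5 RPM in buds. miR831 was at 3.76 and 10.3 RPM in leaves and at 95.4 and 90.9 RPM in buds (-3.68 ± 0.39, adjusted p = 2.3e-05). miR771, miR868-5p and miR829-3p.1 lay between 0 and 1.72 RPM in leaves and between 9.64 and 16.3 RPM in buds. All 5 were called lower in leaves under both scalings, against 21.1% of all tested families in RPM and 48 of 147 when scaled. They were picked for their large falls, and all but miR831 passed the filter largely through their bud values, so this count is a description.

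On the leaf side, several of the families with the greatest excess were neighbours in the genome. miR5026 was at 525 and 415 RPM in leaves and 27.4 and 22.9 RPM in buds (4.17 ± 0.28, adjusted p = 2.9e-06), and ranked 16 in leaves. miR841 was at 28.6 and 24.9 RPM against 0.755 and 0.218 RPM (4.24 ± 0.35, adjusted p = 5.7e-06). miR3932b-5p was at 26.7 and 34.0 RPM against 0 and 0.145 RPM (4.86 ± 0.30, adjusted p = 2.9e-06). Their genes lie on chromosome 4 within chr4:7844612-7890715, a stretch of 46.1 kb that carries 8 annotated miRNA genes with 11 mature sequences. No other annotated miRNA lies in the 100 kb before miR863-3p or the 100 kb after miR3932b-5p. The stretch was singled out after its values were seen, so its count is a description.

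The neighbours on this stretch were mostly on the leaf side. Of the 11 mature sequences 9 passed the filter and 8 were called higher in leaves, also when scaled, against 38.1% of all tested families in RPM and 39 of 147 when scaled. Some of these, such as miR863-3p and miR3932b-5p, passed the filter through their leaf values alone. miR5996 was at 39.6 and 31.9 RPM in leaves and 2.19 and 1.60 RPM in buds (3.67). miR850 was at 21.2 and 9.85 RPM against 0.906 and 1.09 RPM (2.96), and miR863-5p at 22.6 and 20.8 RPM against 1.21 and 0.582 RPM (3.60). The stretch did not move as a block, since the laccase regulators miR397 and miR857 lie between these genes. miR397b (chr4:7878730-7878750) belongs to the family at 1.48 RPM in both leaf libraries given above. miR857 was at 0.455 and 0 RPM in leaves and 0.755 and 1.53 RPM in buds, below the filter. One further family of this kind, miR822, was at 22.9 and 29.3 RPM in leaves and 0.906 and 1.53 RPM in buds (3.62 ± 0.30, adjusted p = 5.7e-06).

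**Figure D3:**
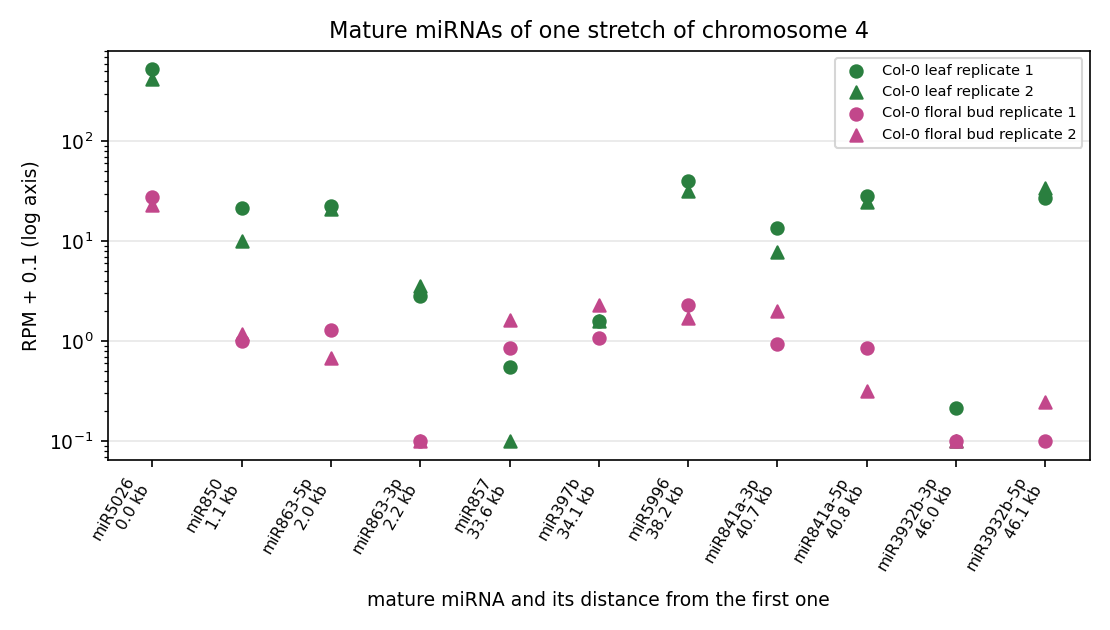
Level (RPM + 0.1, log axis) of the mature miRNAs of the chromosome 4 stretch in order of their distance from the first one, with 1 point per leaf or bud library and values of 0 drawn at 0.1. The leaf libraries lie above the bud libraries except at miR857 and at miR397b, drawn with the value of its family, and miR3932b-3p was near 0 in both organs.

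Families seen in a single organ were few and scarce. A family was counted where both replicates of the organ were above 0 and both of the other were at 0. By this rule 201 of the 259 families seen were present in both organs, 2 were seen in leaves only and 22 in buds only. The bud libraries were deeper, and 3 reads, the limit that a count of 0 allows, were worth 0.54 RPM as a mean over the leaf libraries and 0.222 RPM over the bud libraries. Of the 22 bud families only 9 exceeded the leaf limit on average, and 18 were under 1 RPM in at least 1 bud library. At this depth the absence of the other 13 from leaves was not detectable.

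miR863-3p, at 2.73 and 3.45 RPM in leaves, was at least 13.9-fold higher there than the limit of 3 reads per bud library. miR5014, at 1.14 and 0.739 RPM, was at least 4.22-fold higher. Both were also found in dcl234 buds, at 0.689 and 0 RPM and at 0.197 and 0.116 RPM. The highest of the bud families was miR156f-3p at 2.11 and 2.84 RPM, at least 4.58-fold higher than the leaf limit. It was followed by miR778, at least 3.87-fold higher, and by miR3440b-3p at 1.13 and 2.04 RPM, at least 2.93-fold higher. miR5650 at 1.43 and 1.45 RPM and miR831-5p at 0.831 and 1.31 RPM completed the 5 with a mean of at least 1 RPM. In dcl234 buds 21 of the 22 bud families were seen again.

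The tasiRNAs came from few loci in both organs, with different weights. A name such as TAS1A-3'D8[+] gives the locus, the side of the cleavage site, the number of the 21-nt register counted from it and the strand. TAS1C-3'D2[+] ranked first in every library, at 10144 and 4169 RPM in leaves and 5215 and 7144 RPM in buds, overlapping ranges (0.09 ± 0.60, adjusted p = 0.88). It held 42.2% ± 8.17 of the tasiRNA total in leaves and 66.3% ± 3.83 in buds (SD, n = 2), shares that did not overlap (exact two-sided permutation p = 0.333). Of the 80 tasiRNAs tested, 37 (46.2%) were called higher in leaves and 12 (15%) lower, 61.2% in all, and in 88.8% the replicates did not overlap. The median tasiRNA was 0.93 higher in leaves on the log2 scale and 0.19 higher when each library was scaled to its tasiRNA total. So scaled, only 4 were called higher and 6 lower. That fit took in the dcl234 libraries, whose tasiRNA totals were only 161 and 152 RPM. With the same scaling over the 4 Col-0 libraries alone, chosen after seeing the data, 11 were called higher and 12 lower.

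TAS1A gained most weight in leaves. TAS1A-3'D8[+] stood at 4059 and 2331 RPM in leaves and at 397 and 476 RPM in buds (2.82 ± 0.39, adjusted p = 0.00014). TAS1A-3'D3[-] stood at 263 and 219 RPM against 23.3 and 24.6 RPM (3.27 ± 0.23, adjusted p = 3.2e-06). These were called under both scalings, as were TAS2-3'D9[-] at 246 and 156 RPM against 42.3 and 51.4 RPM (2.05) and tasiR-HTT at 169 and 94.9 RPM against 30.7 and 25.0 RPM (2.15). Summed over its members, TAS1A was at 5461 and 3189 RPM in leaves and 746 and 959 RPM in buds, 5.07-fold higher in leaves, and its share of all tasiRNAs was 26.9% in leaves and 9.18% in buds. TAS2 was at 3324 and 2351 RPM against 1059 and 1091 RPM, 2.64-fold higher, with 12 of its 15 tested members called higher, against 46.2% of all tested tasiRNAs. Scaled to the tasiRNA total, 1 of these 12 kept its call, and 3 changed sign with median-ratio size factors. TAS1C, at 11612 and 5313 RPM against 6019 and 7882 RPM, overlapped between the organs.

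The TAS3 loci, whose tasiRNAs target the auxin response factors ARF2, ARF3 and ARF4, split by copy. TAS3A was at 317 and 268 RPM in leaves and 144 and 172 RPM in buds, and the tasiR-ARF sequence itself at 99.8 and 93.5 RPM against 57.6 and 70.8 RPM (0.59), which was not called. TAS3B was at 1.96 and 0.985 RPM in leaves and 45.0 and 52.2 RPM in buds, 33.0-fold higher in buds. TAS3C was at 0.0167 and 0.985 RPM in leaves and 29.9 and 22.3 RPM in buds. Of the 16 listed tasiRNAs of TAS3B 7 passed the filter, and of the 9 of TAS3C 5 did, through their bud values alone. These 12 were called lower in leaves, 15% of the 80 tasiRNAs tested, and no tasiRNA of another locus was. With leaf values near 0, passing the filter through buds all but fixed such a call, so the count is a description. TAS3B-5'D7[-] was at 1.14 and 0.492 RPM in leaves and 15.4 and 18.8 RPM in buds (-3.34 ± 0.23, adjusted p = 3.2e-06), and TAS3C-5'D4[+] at 0 and 0.739 RPM against 14.8 and 12.6 RPM. When scaled to the tasiRNA total over all 6 sRNA libraries, 6 of the 12 kept their calls. Over the 4 Col-0 libraries alone, all 12 did.

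The precursor transcripts were read from the mRNA of the same RNA samples. The TAS3b transcript (AT5G49615) was listed at 0 in both leaf libraries and at 0.66 and 3.55 TPM in buds. AT5G57735, the TAS3C locus, was listed at 0 in leaves and at 8.87 and 15.02 TPM in buds. The TAS3 transcript (AT3G17185) was at 12.77 and 12.86 TPM in leaves and 8.08 and 14.85 TPM in buds, and TAS1A at 4.36 and 8.68 TPM against 2.02 and 4.61 TPM. Both of these overlapped between the organs, while the precursors of TAS3B and TAS3C did not.

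**Figure D4:**
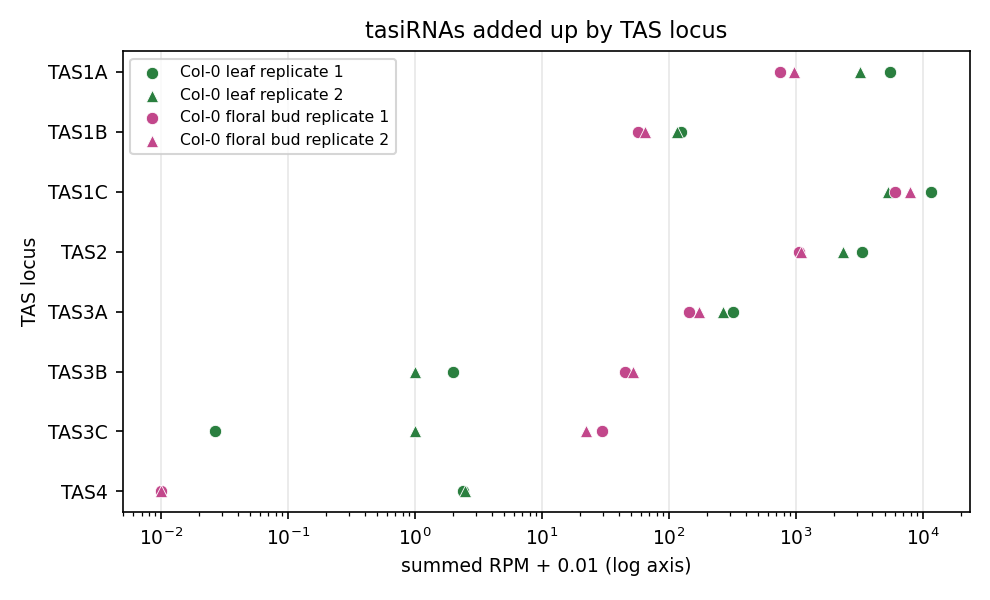
Summed level of the tasiRNAs of each locus (RPM + 0.01, log axis) in Col-0 leaves and floral buds, with 1 point per library. TAS1A and TAS2 lie higher in leaves, TAS1C overlaps, and TAS3B and TAS3C lie higher in buds, where TAS4 was at 0.

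Single-organ tasiRNAs followed the same loci. In leaves only, 3 were seen, all of TAS4, a locus known for regulating MYB genes of anthocyanin synthesis. TAS4-3'D2[+] was at 1.25 and 1.23 RPM, at least 5.58-fold higher than the bud limit. In buds only, 10 were seen, all of TAS3B or TAS3C. TAS3C-5'D7[-] was at 4.30 and 3.56 RPM, at least 7.28-fold higher than the leaf limit, TAS3B-5'D7[+] at 3.40 and 3.53 RPM, at least 6.41-fold higher, TAS3C-5'D1[+] at 3.02 and 2.33 RPM and TAS3B-5'D5[+] at 1.89 and 2.30 RPM. The other 6 were under 1 RPM in a bud library, and 91 of the 115 tasiRNAs seen were present in both organs.

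About as many transposons were called lower in leaves as were not called, and few were called higher. Of 35092 transposons 16968 passed the filter in siR_21, and 8716 (51.4%) were called lower in leaves and 25 (0.147%) higher, 51.5% in all. In siR_24 there were 12343 that passed, with 5792 (46.9%) called lower and 38 (0.308%) higher, 47.2% in all. The replicates of the organs did not overlap for 85.7% and 81.9% of them. The median transposon fell by 1.03 and 0.93 on the log2 scale in the 2 tables, and stood at -0.09 and 0.11 once each library was scaled to its table total. So scaled, 1162 transposons were called higher in leaves and 3917 lower in siR_21, and 1749 higher and 2691 lower in siR_24. The low share of leaf-higher calls thus holds in RPM and not for the make-up of the table.

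The make-up itself differed by kind of element. Transposable element genes, the 3903 entries annotated as genes, were 3.93-fold higher in buds in siR_21 and 4.58-fold higher in siR_24. The 31189 other elements were 2.03-fold and 2.30-fold higher. Transposable element genes accordingly held 11.3% and 11.2% of siR_21 in the leaf libraries and 19.6% and 19.8% in the bud libraries. In siR_24 they held 13.3% and 13.6% against 23.3% and 23.8%. An element and a gene annotated over it share their reads, so these entries are not independent of each other.

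Chromosome 4 was the chromosome with the larger bud share. In siR_21 it held 15.7% ± 0.0262 of the total in leaves and 17.2% ± 0.0427 in buds (SD, n = 2), a difference of -1.53 percentage points. In siR_24 it held 15.7% ± 0.103 in leaves and 17.7% ± 0.0390 in buds, a difference of -2.02 points. Chromosomes 1, 2, 3 and 5 each held more in leaves, by 0.213 to 0.908 points over both tables. The replicates differed far less than the organs on chromosome 4, and the exact two-sided permutation test gave p = 0.333, the smallest it can give.

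The same order held in the ratio of leaf to bud. Chromosome 4 was at 0.407 in siR_21, against 0.453 to 0.456 on the other chromosomes, and at 0.340 in siR_24, against 0.387 to 0.398. Of the chromosome 4 transposons tested in siR_21, 58.6% were called lower in leaves, against 46.5% to 52.0% on the other chromosomes. Leaving out the 10 highest transposons widened the differences on chromosome 4, to -1.95 and -2.24 points.

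The bud excess was uneven along each chromosome. Transposon identifiers are numbered along the chromosomes, so the numbers of each chromosome were divided into 10 stretches of equal width. This division was made after the values were seen. The 3903 transposable element genes were left out of the stretches, though they count in the chromosome values above. On each of the 5 chromosomes and in both tables the stretch with the lowest ratio of leaf to bud was 1 of the 2 that hold the most transposons. In these 2 fullest stretches the ratio in siR_21 was 0.342, 0.389, 0.384, 0.335 and 0.417 on chromosomes 1 to 5, and in the other stretches 0.674, 0.610, 0.647, 0.611 and 0.627. In siR_24 it was 0.306, 0.344, 0.336, 0.305 and 0.381 against 0.635, 0.569, 0.607, 0.541 and 0.609. The order did not hold for every stretch. On chromosome 5 the ratio in siR_21 was 0.589 in stretch 6, with 1341 transposons, and 0.489 in stretch 4, with 1164. On chromosome 4 stretch 8, with only 151 transposons, was at 0.428 in siR_21 and 0.432 in siR_24. Chromosome 4 had the lowest ratio of the 5 in the dense stretches of siR_21 and nearly the same as chromosome 1 in siR_24.

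**Figure D5:**
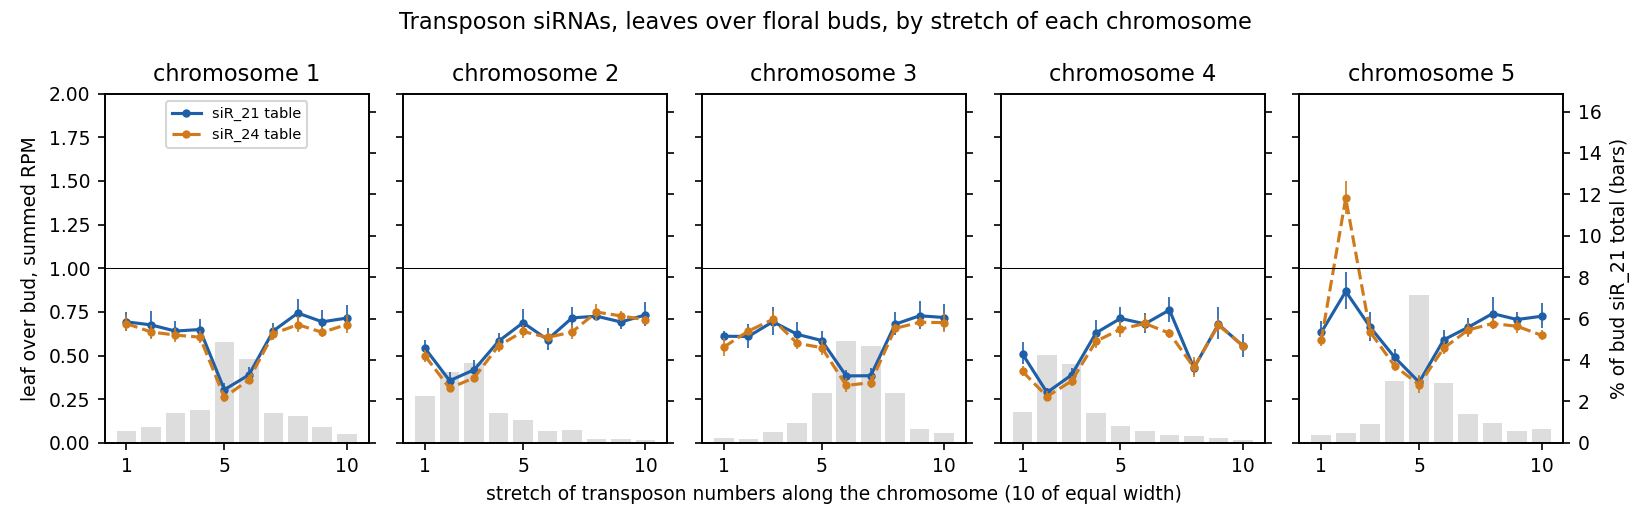
Ratio of leaf to bud (lines, with vertical lines for the range over the 4 pairs of libraries) and percent of the bud siR_21 total (bars) in 10 stretches of the transposon numbers along chromosomes 1 to 5, for siR_21 and siR_24. Transposable element genes are left out of the stretches. The lowest ratio of each chromosome lies in 1 of the 2 stretches with most transposons, chromosome 4 has a further dip in stretch 8 (0.428 in siR_21), and the ratio rises to 1.40 in siR_24 in stretch 2 of chromosome 5.

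A single element set the exception on chromosome 5. Its second stretch had ratios of 0.867 in siR_21 and 1.40 in siR_24, and without AT5TE11315 these were 0.639 and 0.655. AT5TE11315 was at 915 and 818 RPM in leaves and 125 and 161 RPM in buds in siR_24 (2.60 ± 0.16, adjusted p = 7e-09), where it ranked 1 in leaves and 279 in buds. In siR_21 it was at 1291 and 1121 RPM against 240.3 and 299 RPM (2.16 ± 0.15, adjusted p = 2.9e-08). It was called higher in leaves in both tables, 1 of 6 transposons so called in both out of the 25 and 38.

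A further pair of entries called higher in both tables were close in value. AT3G43828 was at 84.2 and 80.7 RPM in leaves and 2.87 and 2.18 RPM in buds in siR_24 (4.57 ± 0.24, adjusted p = 3.2e-09), and at 25.2 and 23.1 RPM against 3.47 and 2.62 RPM in siR_21 (2.64). AT3TE63405 was at 74.4 and 70.2 RPM against 2.49 and 1.82 RPM in siR_24 (4.55 ± 0.23, adjusted p = 2.2e-09), and at 23.4 and 21.2 RPM against 3.70 and 3.64 RPM in siR_21 (2.32). The values of this gene and this element ran close together in all 4 libraries and both tables. Whether they share reads was not tested.

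The most abundant transposons of the organs differed. AT3TE69475 ranked first in siR_21 in both, at 2263 and 2063 RPM in leaves and 3040.2 and 2904 RPM in buds (-0.46, not called). In leaves it was followed by AT5TE40480 at 1597 and 2026 RPM, against 1242 and 1584 RPM in buds, and AT5TE40475 at 1519 and 1939.6 RPM against 1216 and 1531 RPM. Neither was called in RPM, and both were called higher in leaves when scaled to the table total (1.52 and 1.49). So scaled, AT3TE69475 stood at 0.70 and was not called. In buds it was followed by AT5TE41070 at 1537 and 1829.6 RPM, against 173 and 144 RPM in leaves (-3.40 ± 0.14, adjusted p = 3.8e-10), and AT5TE42710 at 1530.4 and 1829 RPM against 174 and 147 RPM (-3.38). The values of AT5TE41070 and AT5TE42710 were nearly equal in every library, and whether they share reads was not tested. Of the 100 highest transposons 43 were shared between leaves and buds in siR_21, against 71 between leaf and 95 between bud replicates, and 35 in siR_24, against 84 and 98. Leaf siR_21 was also held by fewer elements, 697 ± 2.83 for 50% of the total against 963 ± 8.49 in buds (SD, n = 2), while in siR_24 the numbers were 962.5 ± 16.3 and 947 ± 15.6 and overlapped.

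The greatest bud excess belonged to elements with hardly any leaf reads. AT2TE52215 was at 2.28 and 1.97 RPM in leaves and 357 and 466 RPM in buds in siR_21 (-7.04 ± 0.20, adjusted p = 6.9e-11), and at 0.683 and 0 RPM against 66.1 and 88.7 RPM in siR_24. AT5TE27655 was at 4.67 and 2.71 RPM against 408 and 517 RPM in siR_21 (-6.65 ± 0.21, adjusted p = 8.9e-11), and at 1.37 and 1.23 RPM against 71.3 and 77.8 RPM in siR_24 (-5.04). AT3TE63430 was at 1.93 and 2.22 RPM against 264 and 367 RPM in siR_21 (-6.67 ± 0.20). AT2TE56845 was at 0.114 and 0 RPM, 1 read in all, against 40.6 and 39.0 RPM in siR_24. The first 2 were among the named extremes of both tables.

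Most transposons seen were present in both organs, 21405 of 26902 in siR_21 and 17861 of 24265 in siR_24. Those seen in a single organ were almost all bud transposons, but the bud libraries were deeper, so scarce signals were more readily seen there. In siR_21 26 were seen in leaves only, of which 23 exceeded the bud limit of 3 reads, and 2720 in buds only, of which 903 exceeded the leaf limit. In siR_24 35 were seen in leaves only, of which 27 exceeded the bud limit, and 3076 in buds only, of which 893 exceeded the leaf limit. Most of these lists lay under 1 RPM in at least 1 library, 2329 of 2720 and 2765 of 3076 for buds and 26 of 26 and 34 of 35 for leaves. The highest were AT5TE36295, at 0 in leaves and 44.9 and 45.4 RPM in buds in siR_21, at least 83.6-fold higher than the limit, and AT2TE20010, at 15.2 and 18.3 RPM in buds in siR_24, at least 31.0-fold higher.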

How the data were processed

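RPM per miRNA family and tasiRNA were deposited by the authors, who aligned reads to TAIR10 (Bowtie, perfect matches) and divided each read by its number of matches. The transposon tables hold a signal deposited by the authors, RPM added up at each transposon a read overlapped. The precursor and marker levels are the TPM deposited by the authors. Rows absent from a library were set to 0. Depth was computed from the step of 1 read. In the 4 Col-0 libraries 99.97% to 100% of the values of the transposon tables above 0 were whole reads (within 0.01 read), so edgeR 4.0.16 and DESeq2 1.42.0 were run on them as alternatives.

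Leaf and bud were compared with limma 3.58.1 (R 4.3.3) on log2(RPM + 1) over all 6 sRNA libraries, with a constant prior variance for miRNAs and a mean-variance trend otherwise, for features averaging 1 RPM or more in the Col-0 libraries. Adjustment was by Benjamini-Hochberg within each table. Fold changes on this scale understate low features. P-values measure the spread between pools of plants. The limma fits of the miRNA, tasiRNA and siR_21 tables were also run on simulated data, with the outcome not given here. The simulated spread and number of changed features were set and not estimated from these data.

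The text names the 10 highest miRNA families per organ, the 8 with the largest rise and fall, the 5 highest seen in a single organ, up to 4 per role list, the leading and extreme tasiRNAs and the 3 highest and most changed transposons. The members and lists were chosen with earlier results of these data known. How evenly different sequences were cloned was not tested. Positions of the numbered transposons were not used here.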

Additional observations from a re-analysis of the deposited data

How the results depend on the processing

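The direction of the class totals held without any single library, and the number of calls moved most with scaling and with the filter. With each library scaled to its table total, 48 miRNA families were called lower in leaves, 10 tasiRNAs were called (4 higher, 6 lower), siR_21 gave 5079 calls (1162 higher, 3917 lower) and siR_24 gave 1749 higher and 2691 lower. The share of calls on the leaf side moved from 64.4% to 44.8% in miRNAs, from 75.5% to 40% in tasiRNAs, from 0.286% to 22.9% in siR_21 and from 0.652% to 39.4% in siR_24. The same scaling over the 4 Col-0 libraries alone, an alternative chosen after seeing the data, gave 47 miRNA families lower, 23 tasiRNAs (11 higher), 1527 higher and 4449 lower in siR_21, and 1687 higher and 2564 lower in siR_24. Median-ratio size factors gave 10 tasiRNAs (2 higher), 4962 calls in siR_21 (1624 higher, 3338 lower) and 1072 higher and 2949 lower in siR_24. On recovered reads edgeR with TMM gave 1685 higher and 4878 lower in siR_21 and 1526 higher and 3367 lower in siR_24. DESeq2 gave 2268 higher and 3767 lower in siR_21 and 1526 higher and 2849 lower in siR_24. edgeR without TMM, also chosen after seeing the data, gave 51 higher in siR_21 and 72 higher in siR_24. With at least 1 RPM required in each Col-0 library there were 52 miRNA calls (14 lower), 32 tasiRNA calls (0 lower, since the filter removes them), 5347 calls in siR_21 (5327 lower) and 3171 in siR_24 (25 higher, 3146 lower).

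Leaving out single libraries gave 83 to 95 miRNA calls (52 to 60 higher, 29 to 38 lower), 45 to 54 tasiRNA calls (33 to 42 higher, 12 lower each time), 8215 to 9310 calls in siR_21 (29 to 49 higher, 8176 to 9261 lower) and 5562 to 5984 in siR_24 (46 to 61 higher, 5516 to 5938 lower). The ratio of leaf to bud totals ranged from 1.56 to 1.65 in miRNAs, 1.23 to 2.28 in tasiRNAs, 0.422 to 0.474 in siR_21 and 0.364 to 0.405 in siR_24. Lists seen in leaves only ranged over 3 to 10 miRNA families, 3 to 8 tasiRNAs, 78 to 265 siR_21 and 100 to 308 siR_24 transposons. Lists seen in buds only ranged over 31 to 35, 11 to 15, 3606 to 5081 and 4290 to 5329. A family seen in 1 replicate or more counted 14, 8, 401 and 485 in leaves only and 44, 16, 5096 and 5919 in buds only. With a mean of at least 1 RPM required, the counts were 1, 1, 0 and 2 in leaves only and 5, 4, 486 and 406 in buds only.

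Some shares moved as well. With families added up by miRNA number, the 5 highest held 78.7% of leaf miRNAs. Without the 10 highest transposons the leaf minus bud difference in percentage points was 0.628, 0.610 and -1.95 for chromosomes 1, 2 and 4 in siR_21, and 0.402, 0.0223 and -2.24 for chromosomes 1, 3 and 4 in siR_24. With median-ratio factors 6 called tasiRNAs changed sign, TAS1A-3'D5[+] at -0.28, TAS1B-3'D5[-] at -0.042, TAS1C-3'D6[+] at -0.068, TAS2-3'D1[+] at -0.033, TAS2-3'D3[+] at -0.036 and TAS2-3'D9[+] at -0.080 on the log2 scale. AT3TE69475 in siR_24, at -0.03 and not called in RPM, changed sign to 1.35 when scaled, with all or only the Col-0 libraries, 1.15 with median-ratio factors, 1.11 with edgeR and 1.20 with DESeq2. The cause was not tested in any of these. Of the other values for single features 1353 kept their side of the threshold, 144 lost their call and 32 gained one. Values not called in either setting count among the 1353 even where their sign changed. AT3TE69475 in siR_21, for example, moved from -0.46 to 0.70 when scaled.

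Whether leaf and bud replicates of the same number came from the same plants is not stated by the labels, and they were not treated as pairs. The differences between replicates correlated across organs at -0.166, -0.0753, -0.0132 and 0.0133 in the 4 tables, which cannot settle this. With the replicate number as a block the calls were 56 higher and 31 lower in miRNAs, 37 and 12 in tasiRNAs, 25 and 8717 in siR_21 and 38 and 5792 in siR_24. With 2 libraries an organ no exact test over libraries can pass 0.05. The shallower leaf library, where 1 read is worth 0.246 RPM, limits what can be said of families under 1 RPM.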
